A study of Homo sapiens with 2 samples.

Results

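The cells described here were the 62 MDAMB468 breast cancer cells with the highest share of RNA from 5 genes for secreted defence proteins: S100A8, S100A9, PI3, SLPI and LCN2. They were the top 30% of 208 MDAMB468 cells by summed unique molecular identifiers (UMIs, tags that mark single RNA molecules) of the 5 genes over all UMIs of the cell. The 208 cells were those with at least 5000 UMIs, without barcodes 1 base away from an MDAMB468 barcode with at least 5 times their UMIs, and came from 1683 deposited barcodes of the series. The other 146 cells served for comparison. MDAMB468 is an established human line of triple-negative breast cancer, a tumour without oestrogen receptor, progesterone receptor or HER2 amplification. The study profiled it and a second triple-negative line, CAL51, with Drop-seq, which traps each cell in a droplet with a barcoded bead and reads the 3′ ends of its polyadenylated RNA. Neither line's labels name a treatment, and each line was 1 library, so the 62 and 146 cells were drawn from 1 culture sample. There is therefore no replicate to test against, and p-values are not given. Intervals are exact 95% intervals and cover counting error only.

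Epithelia that line ducts, airways and skin secrete small proteins that limit microbes and proteases. S100A8 and S100A9 form calprotectin, which binds zinc, manganese and calcium. PI3 (elafin) and SLPI inhibit serine proteases such as neutrophil elastase, and LCN2 (lipocalin 2) binds bacterial iron carriers. In epithelial cells these genes are commonly induced by inflammatory signals, and calprotectin is also a main protein of neutrophils.

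The members were epithelial cells of the line. KRT7, a luminal keratin, had UMIs in 62 of 62 members and 146 of 146 other cells. Of 19 immune cell markers, 12 were in the data. The leukocyte gene PTPRC, the myeloid genes AIF1, LYZ and ITGAM, and the neutrophil genes CSF3R, ELANE and CXCR2, 7 in all, had 0 UMIs in all 208 cells. The immune list summed to 5 UMIs in members and 8 in the others (0 to 2 per cell in both groups), against 1601 UMIs of S100A8 and S100A9 in members. A stromal and endothelial list summed to 10 UMIs in members (0 to 4 per cell) and 18 in the others (0 to 3), with COL1A2, COL3A1, VWF and CDH5 among those at 0. A list of CAL51 genes summed to 6 (0 to 1) and 11 (0 to 2). The 12-base barcodes of 31 of the 208 cells, 12 members and 19 others, also occurred in the CAL51 library. Without these cells the log2 differences described below were 4.57 for S100A7, 1.28 for DEFB1, 0.60 for LY6D, -1.80 for VIM and 0.95 for IFIT2, against 4.62, 1.33, 0.75, -1.32 and 6.32 with them. No doublet caller was run.

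Members and others had similar depth. Members held a median of 18267.5 UMIs (5011 to 131840) and the others 17592 (5695 to 134213). After thinning each cell to 5000 UMIs, which left out no cell, a median of 2215.5 genes was detected in members and 2223 in the others. Mitochondrial genes took a median of 5.75% and 5.86% of UMIs. Spearman's rho of the score with the UMIs of a cell was 0.03 over the 208 cells.

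The score formed a continuous range. Members lay between 8.91 and 58.3 score UMIs per 10000, with a median of 13.6. The others lay between 0 and 8.91, with a median of 4.21. The lowest member and the highest other cell were almost level, at 8.914 and 8.911, and the next cells on each side stood at 9.002 and 8.811. Within 20% of the cut were 17 members above it and 14 others below it, so small differences decided membership near the cut. Only 3 cells had no UMI of any of the 5 genes.

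**Figure D1:**
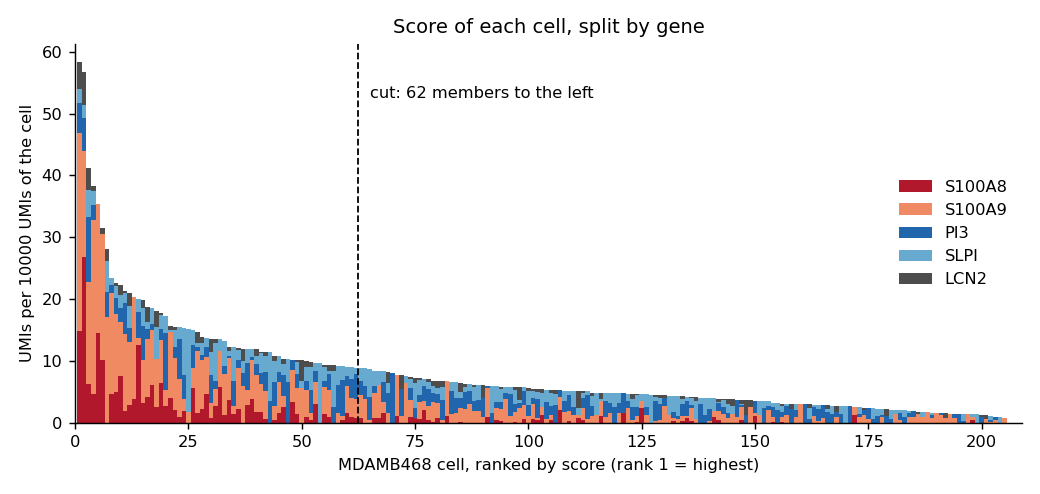
Score of each of the 208 cells, ranked from highest to lowest and split by gene, in UMIs per 10000 UMIs of the cell. The score falls without a step at the cut of the 62 members, and S100A9 makes up 42.4% of the members' score UMIs.

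The 5 genes did not contribute equally. This is a description of what chose the cells, not a result. S100A9 gave 1099 of the 2590 score UMIs of members (42.4%), S100A8 502 (19.4%), PI3 452 (17.5%), SLPI 406 (15.7%) and LCN2 131 (5.06%). Among the others, S100A8 gave 5.22% of 1513 score UMIs, while PI3 and S100A9 gave 454 UMIs each. The weight of S100A8 and S100A9 therefore set many memberships. By these calprotectin genes alone, 51 members (82.3%) ranked in the top 30%, and by PI3, SLPI and LCN2 alone 41 (66.1%) did. Both rankings kept 30 members, and no member failed both. UMIs of all 5 genes were present in 28 members and 19 others, and 9 members had none of S100A8.

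The calprotectin genes varied together across cells more than the other pairs did. Spearman's rho over the 208 cells was 0.67 between S100A8 and S100A9 as shares of UMIs. It ranged from 0.04 for S100A9 with PI3 to 0.30 for PI3 with SLPI in the other 9 pairs. All pairs share the same cells and depth, so the values are descriptive. The top 30% of cells were also chosen by the other 4 genes, leaving out the gene in question, which kept 53 to 59 of the 62 members. S100A8 was then 9.96-fold higher (8.04 to 12.4) in the chosen cells, S100A9 3.75-fold (3.38 to 4.15), LCN2 2.06-fold (1.60 to 2.65), SLPI 1.77-fold (1.54 to 2.04) and PI3 1.74-fold (1.52 to 1.99). These values describe cells that are nearly the same as the members and support nothing further. In 1069 CAL51 cells (median 10389 UMIs) S100A8, S100A9, PI3 and LCN2 had no UMI, and SLPI had 10 UMIs in 9 cells. The 5 genes lie in 3 regions of the genome (GRCh38, GENCODE 29, since the authors' build is not known). S100A9 (chr1:153357854-153361027) and S100A8 (chr1:153390032-153391188) lie near each other on chromosome 1. PI3 (chr20:45174876-45176544) and SLPI (chr20:45252239-45254564) lie near each other on chromosome 20, and LCN2 (chr9:128149071-128153455) is on chromosome 9.

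Over all other genes, few differed by 1.5-fold. Of 6313 genes with at least 100 UMIs over both groups, 82 (1.30%) were at least 1.5-fold higher in members and 144 (2.28%) at least 1.5-fold lower, on log2 of CPM + 1, where CPM is a gene's UMIs scaled to 1000000 UMIs of the group. The median difference was -0.02. The rule used these cells, so these shares are given as a background, and nothing is read from them. Leaving out each gene's highest cell left 56 genes higher (0.887%) and 136 lower (2.15%), of which 43 of the 82 and 108 of the 144 had already been called. Of the 82, 10 changed sign. For 29 of the 82, the highest cell was the same member, described next. Without the cells whose barcodes occurred in both libraries, 4443 genes reached 100 UMIs, 73 were higher and 105 lower, and they included 23 of the 82 and 29 of the 144.

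**Figure D2:**
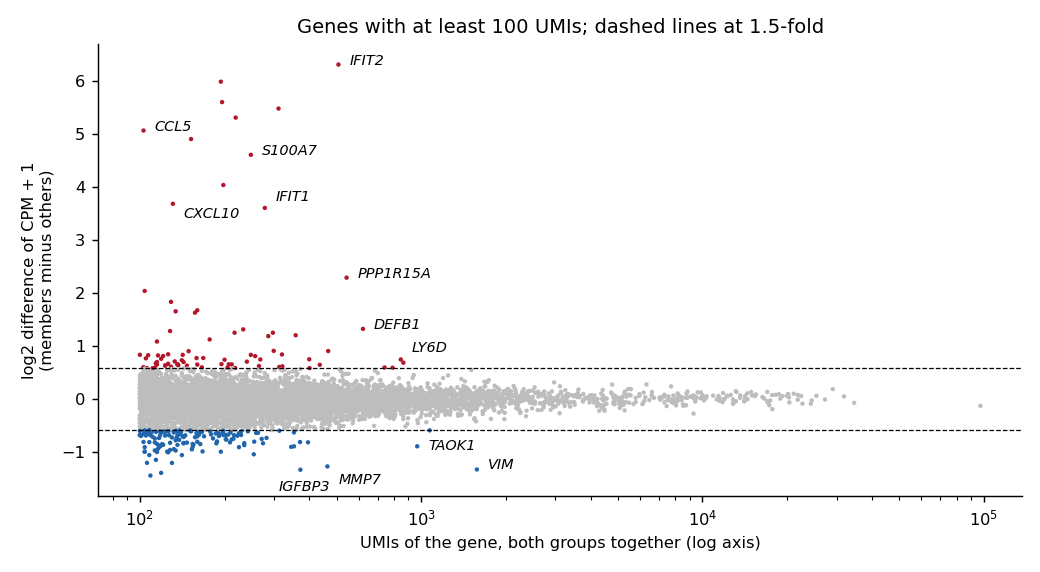
Log2 difference of CPM + 1, members minus others, for the 6313 genes with at least 100 UMIs (horizontal log axis, UMIs of both groups), with dashed lines at 1.5-fold. 82 genes lie above (red) and 144 below (blue); IFIT2, at 6.32, is highest and rests on 1 cell.

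One member carried most of the highest differences. This cell, ranked 3rd by score with 68673 UMIs, held 488 UMIs of IFIT2, an antiviral protein induced by interferon, against 20 in the other 207 cells together (at most 4 in 1). It held 210 UMIs of IFNB1, the type I interferon beta, against 9, and 299 UMIs of IFNL1, a type III interferon, against 12. IFIT1, which binds foreign RNA ends, had 225 against 53. IFIT3 had 158 against 40, OASL 142 against 10, the chemokines CCL5 97 against 6 and CXCL10 97 against 34, and CXCL11 27 against 4. ISG15, a ubiquitin-like protein, had 107 against 251, and PPP1R15A, a stress phosphatase subunit, 297 against 246. IFNL2 and IFNL3 are near-identical genes, so the 190 UMIs listed for each are uncertain as to which gene they came from. In all, 37 genes had at least 20 UMIs in this cell and a level at least 10-fold that of the rest. The fold over the rest was 1809 (1159 to 2989) for IFIT2 and 1730 (894 to 3837) for IFNB1.

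The same cell expressed the genes of the line. It held 53 UMIs of KRT7, 42 of KRT5, 40 of EPCAM, 41 of AZGP1 and 20 of EGFR, with 0 of PTPRC and 0 of GSTP1, a gene of the CAL51 list. Its score was 41.2 per 10000, with 43 UMIs of S100A8, 113 of S100A9, 72 of PI3, 31 of SLPI and 24 of LCN2. Its mitochondrial share was 3.89%, and 6 of the 208 cells were lower. The cell was called G2M. Its barcode also occurred in the CAL51 library, where that copy had 4658 UMIs with 38 of IFIT2, 10 of IFNB1 and 50 of IFNL1.

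Few UMIs of these genes were found in other cells. Summed UMIs of IFIT1, IFIT2 and IFIT3 reached 871 in this cell and at most 22 elsewhere. At least 5 such UMIs were found in 6 cells, 3 of them members. Any UMI of the 3 genes was found in 21 members (33.9%) and 22 others (15.1%), and after thinning to 5000 UMIs in 7 members (11.3%) and 7 others (4.79%). In CAL51, at the same thinned depth, 55 of 1069 cells (5.14%) had such a UMI, so the share of the others was at that level. The highest CAL51 cell held 68 of them, so CAL51 is not a level without expression. The thinned counts of members were few. A UMI of IFNB1 or IFNL1 was found in 19 of the other 207 cells, with at most 2 in any cell. It was found in 1 of 1069 CAL51 cells, which held 11. Single UMIs of this kind in the other MDAMB468 cells are not read as expression, since free RNA from the 1 cell of very high counts was not tested as their source.

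**Figure D3:**
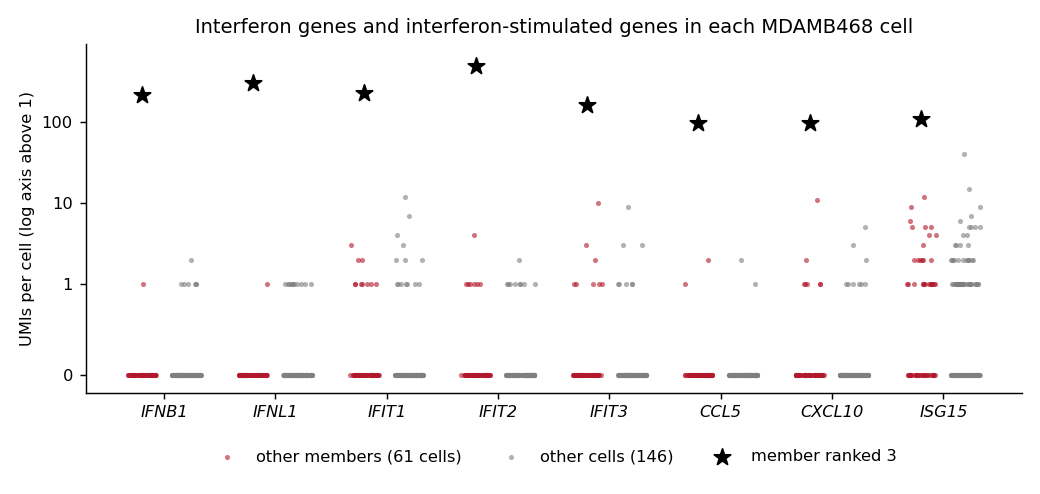
UMIs per cell of interferon genes and interferon-stimulated genes (log axis above 1) in the 62 members (red) and 146 others (grey); the star is the member ranked 3rd. The star is highest for every gene shown, and closest to the other cells for ISG15, with 107 UMIs against at most 40.

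The promoters of 4 genes of this cell's group are shown, since their sequence is where the interferon and NF-kB signals are known to act. RefSeq promoter windows (build GRCh38.p14) were sought for 9 genes, and 7 were found. The windows of S100A7 and S100A9, with no match to either motif described below, and of LCN2, with 1 NF-kB match, are not printed; those printed all hold a match. Each window printed is the 250 bases before the RefSeq start, written 5′ to 3′ on the strand of the gene. Capitals mark matches, on either strand, to the interferon-stimulated response element (ISRE) core, which is GAAA, any 2 bases and GAAA, or to the NF-kB consensus. No match of the ISRE core overlapped one of the NF-kB consensus in these windows. The windows are chr10:89392373-89392622 (+ strand) for IFIT1, chr10:89327747-89327996 (+ strand) for IFIT3, chr9:21077943-21078192 (- strand) for IFNB1 and chr4:76023498-76023747 (- strand) for CXCL10.
IFIT1: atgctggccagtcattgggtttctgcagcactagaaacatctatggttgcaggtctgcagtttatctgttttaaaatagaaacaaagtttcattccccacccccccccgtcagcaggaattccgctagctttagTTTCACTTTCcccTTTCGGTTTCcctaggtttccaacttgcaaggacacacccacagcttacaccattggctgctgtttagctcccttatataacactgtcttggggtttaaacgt
IFIT3: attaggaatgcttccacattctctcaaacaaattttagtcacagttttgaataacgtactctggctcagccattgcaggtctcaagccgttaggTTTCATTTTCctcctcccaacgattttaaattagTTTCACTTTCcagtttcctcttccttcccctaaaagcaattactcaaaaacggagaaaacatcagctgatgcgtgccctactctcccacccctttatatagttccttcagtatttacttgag
IFNB1: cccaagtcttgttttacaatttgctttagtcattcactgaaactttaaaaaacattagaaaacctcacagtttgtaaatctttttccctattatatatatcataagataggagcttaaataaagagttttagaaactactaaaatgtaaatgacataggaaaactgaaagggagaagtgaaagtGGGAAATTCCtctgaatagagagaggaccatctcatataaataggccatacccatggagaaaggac
CXCL10: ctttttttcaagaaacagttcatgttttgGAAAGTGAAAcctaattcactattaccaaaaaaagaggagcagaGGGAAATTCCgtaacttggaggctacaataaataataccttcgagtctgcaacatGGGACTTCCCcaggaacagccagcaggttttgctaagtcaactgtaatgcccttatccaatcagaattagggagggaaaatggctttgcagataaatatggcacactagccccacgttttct
IFIT1 held 2 ISRE cores, ending 107 and 94 bases before the start, and IFIT3 held 2, ending 147 and 113 bases before it. IFNB1 held 1 NF-kB match, ending 57 bases before the start, and CXCL10 held 1 ISRE core and 2 NF-kB matches. Over 35116 RefSeq windows of the same length, 1061 (3.02%) held the ISRE core and 3498 (9.96%) the NF-kB consensus. A match is a description of the letters in a window, not a measured site.

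Outside that cell, some secreted defence genes were higher in members. Among 36 secreted and antimicrobial genes outside the score, 29 were in the data and 9 reached 100 UMIs, of which 3 were higher and 1 lower, with a median of 0.23 against -0.02 over all genes. The count was the same without the interferon-expressing cell. S100A7 (psoriasin), an antimicrobial S100 protein encoded in the same region as S100A8 (chr1:153457744-153460701), had 231 UMIs in members and 17 in others, in 20 and 8 cells. It was 29.4-fold higher (18.0 to 51.3) with all members counted. The member ranked 1st by score held 103 of its UMIs, the interferon-expressing cell 55 and the member ranked 2nd 18. The log2 difference was 4.62 with all members. It was 3.79 without the member ranked 1st and 4.29 without the interferon-expressing cell. Most cells in both groups had no S100A7 UMI, so the groups overlapped, and CAL51 had none. S100A7 has close paralogs, so its counts may include reads of them.

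DEFB1, a beta-defensin made constitutively by many epithelia, differed more evenly. It had UMIs in 48 members and 80 others, with a median of 144 CPM per cell (0 to 1173) in members and 32.4 (0 to 2013) in others. It was 2.53-fold higher (2.16 to 2.98), with 1.23 on the log2 scale without its top cell against 1.33 with it. After thinning, 31 of 62 members and 42 others (28.8%) had a UMI, while at the same depth CAL51 had a UMI in 2.15% of cells. The groups overlapped widely. WFDC21P, a pseudogene of the WFDC antiprotease family, had 90 UMIs in 30 members and 87 in 24 others, a log2 difference of 1.13. CP, ceruloplasmin, the plasma copper carrier, was lower, with 25 and 116 UMIs and a difference of -1.05, but at -0.11 by PI3, SLPI and LCN2 alone. AZGP1, a secreted glycoprotein of breast epithelium, was at -0.08.

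LY6D, a GPI-anchored protein of differentiating epithelium, was also higher. It had a median of 167 CPM per cell (0 to 830) in members and 110 (0 to 895) in others, 1.69-fold higher (1.47 to 1.94), or 0.75 on the log2 scale. It was detected after thinning in 67.7% of members and 39.7% of others, and in 0.0935% of CAL51 cells. SELENOP, a selenium carrier, was 1.81-fold higher (1.45 to 2.27). ALDH2, the mitochondrial aldehyde dehydrogenase, was 1.70-fold higher (1.39 to 2.08), GLYATL2, an enzyme that conjugates glycine to acyl groups, 1.89-fold (1.57 to 2.28), and PLAAT4, a retinoid-inducible phospholipase, 2.32-fold (1.83 to 2.95). PLAAT3 was 1.81-fold higher (1.40 to 2.34). Without the interferon-expressing cell, LY6D, ALDH2, PLAAT3, SELENOP and GLYATL2 lay between 0.76 and 0.94, and PLAAT4 moved from 1.19 to 0.70. MME (CD10), a cell-surface peptidase, was at 0.69, but at 0.42 without its top cell and at 0.32 when each cell carried the same weight.

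MME, like LY6D, SELENOP, ALDH2 and GLYATL2, was under the 1.5-fold limit when PI3, SLPI and LCN2 alone chose the members. LY6D was then at 0.24, SELENOP at 0.29 (against 0.85), ALDH2 at 0.45 (against 0.76), GLYATL2 at 0.34 (against 0.91) and MME at 0.22. In cells below the median depth LY6D and SELENOP were both at 0.44. With the top 20% of cells by score as members, GLYATL2 was at 0.47, MME at 0.46, ALDH2 at 0.55 and LY6D at 0.58. These values were also under the limit, while SELENOP and PLAAT3 stayed past it. S100A7, DEFB1, WFDC21P and PLAAT4 were past the limit in all 22 alternatives.

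Several of these genes also differed along the score among the others. CPM of DEFB1, over all UMIs, was 205 in members, 106 in the 73 others with the higher scores and 54.5 in the 73 with the lower. LY6D gave 227, 155 and 113 CPM in the same order, PLAAT4 90.6, 57.0 and 19.9, and SELENOP 89.4, 63.1 and 34.6. MME gave 227, 157 and 121, GLYATL2 134, 77.9 and 62.8, and PLAAT3 69.2, 40.6 and 35.8. The intervals of the upper and lower others overlapped for GLYATL2 (65.6 to 91.8 and 51.4 to 75.8) and PLAAT3 (31.9 to 50.9 and 27.4 to 46.0). After thinning, GLYATL2 was found in 21.9% of the upper and 24.7% of the lower others, and MME in 47.9% and 45.2%. IFIH1 was level among the others by CPM only, at 39.5 and 39.9, with 96.2 in members. It was found after thinning in 18 of 62 members, 20 of the 73 upper others and 12 of the 73 lower others. The member values include the interferon-expressing cell, which held 48 of the 148 PLAAT4 UMIs and 51 of the 157 IFIH1 UMIs of members. Without it the log2 differences of members and all others were 0.70 for PLAAT4 and 0.76 for IFIH1. S100A7 was at 141 CPM in members and had only 13 UMIs in the upper and 4 in the lower band of others; 10 of the 13 came from 1 cell, leaving 3 against 4 without it. KRT7 was level, at 966, 943 and 958 CPM. These bands come from 1 library and have no replicate error.

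**Figure D4:**
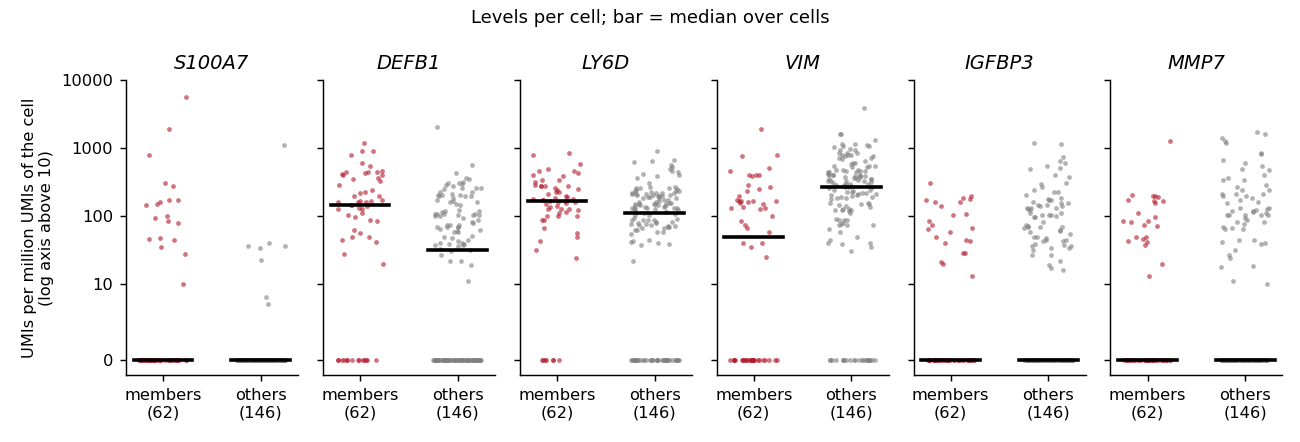
Level of 6 genes in each cell (CPM of the cell, log axis above 10), members (red) and others (grey), with the median as a bar. The medians of DEFB1 and LY6D lie higher in members and that of VIM lower, and in every panel the points of the 2 groups overlap.

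VIM, a mesenchymal marker gene, was the most abundant of the lowest genes. This gene, which encodes the intermediate filament protein vimentin (chr10:17228259-17237593), had 245 UMIs in 35 members and 1332 in 124 others, with a median per cell of 49.5 CPM (0 to 1922) against 269 (0 to 3790). It was 2.51-fold lower (2.19 to 2.89) in members, with a log2 difference of -1.32, and -1.28 without its top cell. After thinning, 41.9% of members and 67.8% of others had a UMI. The groups overlapped, and 9 members (14.5%) were among the 62 cells highest in VIM share. Of 5 measured mesenchymal genes, all 5 were below 0 but VIM alone was past 1.5-fold. Their median was -0.13 against -0.02 over all genes, and no direction is read from the 5 signs. VIM was at -0.43 when members were chosen by PI3, SLPI and LCN2 alone and at -1.65 by S100A8 and S100A9 alone.

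IGFBP3, a secreted binder of insulin-like growth factors, was 2.55-fold lower (1.92 to 3.45), and MMP7, a matrix metalloproteinase of glandular epithelium, 2.44-fold lower (1.90 to 3.17). Both depended on which score genes were used. By S100A8 and S100A9 alone IGFBP3 was at -1.45 and MMP7 at -1.46. By PI3, SLPI and LCN2 alone they were at -0.05 and 0.29. KRT81, a hair keratin, was at -0.90 (-0.08 in G2M cells), SDC2, a heparan sulphate proteoglycan, at -0.81 (-0.29 by PI3, SLPI and LCN2 alone), and the metalloproteinase ADAMTS1 at -1.04, though at 0.53 in cells below the median depth. TAOK1, a kinase, was at -0.89 but rested on a few other cells, with 114 and 90 UMIs in the highest 2, and after thinning was found in 43.5% of members and 43.2% of others. Others among the 14 lowest were ZNF791, ASAP1, AHNAK2, WDR5, NIN, WTAP, FAM168B and UTRN, between -0.86 and -0.75. Of these 8, WDR5 was past the limit in all 22 alternatives, and each of the other 7 was under it in 1 to 6 of them. MMP7 and ADAMTS1 were picked after their values were seen.

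The receptor EGFR, which is amplified in MDAMB468, was lower by less than the limit of 1.5-fold. It had a median of 317 CPM per cell in members and 423 in others, 0.80 times (0.73 to 0.88), and stood at 391, 463 and 514 CPM from members to the lowest scores. Its log2 difference was -0.32, with -0.42 by S100A8 and S100A9 alone and -0.11 by PI3, SLPI and LCN2 alone. Of 15 genes of EGFR signalling, 3 reached 100 UMIs and 1, PHLDA1, was past 1.5-fold, at -0.67, but at 0.13 with cells thinned to equal depth and at -0.18 in cells below the median depth. SPRY2, an inhibitor of the pathway, was at -0.55.

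The counts for immune response genes were smaller without the interferon-expressing cell, where 70 of 6264 genes (1.12%) were higher and 150 (2.39%) lower over all genes. Of 11 measured NF-kB-linked and cytokine genes, 5 were higher and 0 lower, with a median of 0.56, and without that cell 2 were higher with a median of 0.04. Of 15 interferon-stimulated genes, 7 were higher and 0 lower, with a median of 0.44, and without that cell 1 was higher with a median of 0.26. The minimum of 100 UMIs was applied again without that cell, so fewer genes of both lists entered. IFIT1, IFIT2, IFIT3, CCL5, CXCL10 and BIRC3 fell below it, at -0.28, 0.95, 1.05, 0.66, 1.18 and 1.01. On the unchanged gene sets, without each gene's top cell, 5 genes were higher and 0 lower in each list. The medians were then 0.21 (NF-kB-linked) and 0.24 (interferon-stimulated). The genes that fell below 100 UMIs were in these sets only through the interferon-expressing cell. The other 207 cells held 6 UMIs of CCL5, 20 of IFIT2, 40 of IFIT3 and 34 of CXCL10. The counts of 5 are therefore not read as a difference of the lists. The summed fold of the interferon list went from 1.56 to 1.17 without the interferon-expressing cell. CXCL8, the main neutrophil chemokine, had 16 UMIs in 6 members and 1 UMI in others. That is under the minimum of 100 UMIs, so no difference is read from CXCL8. CXCL3, another neutrophil chemokine, was at 1.66 and, without its top cell, at 2.36, but at -1.12 in G1 cells, and was found in 12 members and 12 others. With and without their top cell, BIRC3, an apoptosis inhibitor, was at 2.05 and 1.01, TNFAIP2, a gene induced by tumour necrosis factor, at 1.32 and 0.61 (0.18 in cells below the median depth), and IFIH1, an RNA sensor, at 1.26 and 0.76. IFIT1, at 3.61, was at -0.28 without the cell, and SOD2 went from 0.56 to 0.01.

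In the other lists at most 1 gene was past 1.5-fold. The median over all genes was -0.02, and no direction of a list is read from counts above or below 0. Antigen presentation genes (8 measured) had a median of 0.17 with none past 1.5-fold, and 7 of 8 lay above 0, among them B2M at 0.32 and HLA-B at 0.40. Luminal genes had a median of 0.16 with none past the limit, including KRT7 at 0.02 and the transcription factor EHF at 0.57. Basal genes had 1 higher, KRT17, at 0.62, which stood at -0.14 without its top cell. Sterol and fatty acid synthesis genes had a median of -0.16, with 17 of 19 below 0 and none past the limit. Stress genes, hypoxia and glycolysis genes, CDK inhibitors and p53 targets, junction genes, other S100 genes and ribosomal protein genes had medians between -0.04 and 0.12. Of these, the stress gene ATF3 was higher (0.71, and 0.13 without its top cell), the glucose transporter SLC2A1 lower (-0.76, and -0.36 by PI3, SLPI and LCN2 alone), and S100A7 was the S100 gene past the limit. Squamous genes had a median of 0.14 with KRT81 past the limit, S phase genes -0.11, G2 and M phase genes -0.05 and mitochondrial genes 0.00, the last 3 with none past it.

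**Figure D5:**
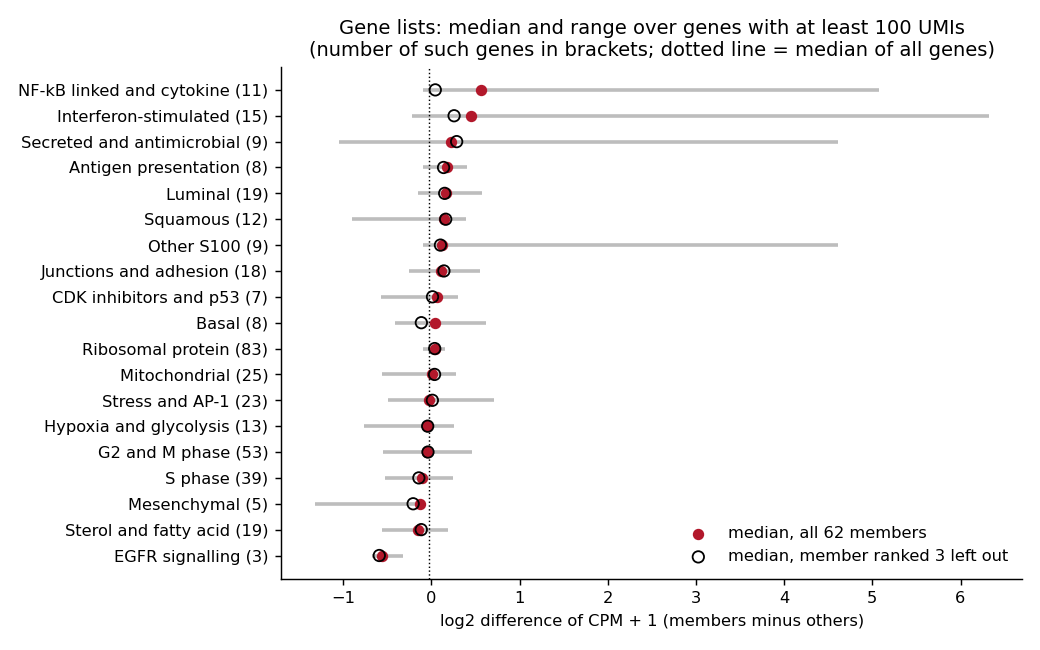
Median (red) and range (grey line) of the log2 difference over the measured genes of each list, with the median after leaving out the member ranked 3rd as open circles and the median of all genes dotted. The NF-kB-linked list moves from 0.56 to 0.04 when that cell is left out, and the interferon-stimulated list from 0.44 to 0.26. The open circles cover only genes that still had at least 100 UMIs without that cell.

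Cell cycle calls were similar in both groups. After thinning, phase calls put 12 members in G1 (19.4%, 10.4 to 31.4), 19 in S (30.6%) and 31 in G2M, against 28 (19.2%, 13.1 to 26.5), 47 (32.2%) and 71 (48.6%) of the others. MKI67, a proliferation marker, was at -0.17 and TOP2A at 0.07. Members were spread over all clusters. With the score genes left out of clustering, members were 26.9%, 30.9% and 32.3% of 3 clusters of 78, 68 and 62 cells (intervals 17.5 to 38.2, 20.2 to 43.3 and 20.9 to 45.3). Of each member's 15 nearest neighbours, 30.2% were members, against 29.5% of the remaining cells. They are therefore described as the upper end of a range of scores and are not named as a cell type.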

How the data were processed

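The data are UMI counts per gene and barcode, as the authors deposited them in 1 table for both lines. Read 1 held the barcode and UMI and read 2 the transcript, per the labels' protocols. STARsolo is named in the submitters' processing notes. Its version, the genome build, the annotation and the strand setting were not given in the sources used here, so counts of overlapping and near-identical genes are uncertain. The lowest barcode had 2501 UMIs. All 30796 genes were used, of which 30793 had a symbol from a table of gene names or GENCODE 29, and 0 sample columns were left unused.

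The members and the gene lists were chosen with earlier results of these data known. UMIs were summed over members and over others without the score genes, scaled to the same total (CPM), and compared as log2 of CPM + 1, a scale that understates the difference of low genes. Folds have exact conditional intervals, and shares have Clopper-Pearson intervals. Scanpy 1.11.5 gave phases and clusters (2000 variable genes, 20 principal components, 15 neighbours, Leiden resolution 0.5). edgeR 4.0.16 supplied TMM factors for an alternative scaling only. The statistical steps were tested on simulated sums of the groups. These sums held counting error only and no variation between cells, so the test does not cover genes carried by single cells.

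Named genes were the 14 highest and 14 lowest differences among genes with at least 200 UMIs and the same sign in every setting run, list genes past 1.5-fold (up to 4 a list), each list's highest and lowest gene with at least 100 UMIs, and 14 fixed genes. Others named were picked after their values were seen. Some genes that the rule names are not reported here. Alternatives are in the closing section, and 3 of them were added after seeing the data: leaving out the member with the most IFNB1 UMIs, leaving out each gene's highest cell, and leaving out the cells whose barcodes occurred in both libraries.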

Additional observations from a re-analysis of the deposited data

How the results depend on the processing

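The numbers of genes past 1.5-fold depended on how many genes reached the UMI minimum. The 82 of 6313 genes higher in members (1.30%) became 126 for the top 20% of cells by score and 47 with a pseudocount of 10 CPM. They became 29 of 1788 (1.62%) when every cell was thinned to 5000 UMIs, 36 of 1840 (1.96%) in cells below the median depth and 46 of 1405 (3.27%) in G1 cells, so the counts were smaller but the shares larger. Only 4, 4 and 6 of these were among the 82. A minimum of 20 UMIs per gene gave 509 of 11331 (4.49%) and one of 500 gave 7 of 1771 (0.395%). The 144 lower genes (2.28%) became 95 for the top 40%, 59 with the pseudocount of 10, 32 thinned (1.79%), 53 below the median depth (2.88%), 37 in G1 (2.63%), 810 with at least 20 UMIs (7.15%) and 3 with at least 500 (0.169%). Of the thinned, shallow and G1 calls, 4, 5 and 4 were among the 144. Of 1760 values of named genes under the alternatives, 1483 lay within the counting interval of the reported value, 258 outside it, and 19 of genes past 1.5-fold changed sign. KRT14 was at 0.93 with all cells, with 42 UMIs in members and 46 in others, under the minimum of 100. The interferon-expressing cell held 13 of the 42. In cells below the median depth, CCL5 was at -1.17, KRT14 at -0.80, ATF3 at -0.32 and ADAMTS1 at 0.53. In G1 cells, CCL5 was at -1.57, CXCL10 at -3.68, IFIT1 at -0.29, CXCL3 at -1.12, KRT14 at -0.55 and MMP7 at 0.50. By PI3, SLPI and LCN2 alone, ADAMTS1 was at 0.11 and MMP7 at 0.29. With cells thinned, ATF3 was at -0.22 and PHLDA1 at 0.13. Without the member with the most IFNB1 UMIs, and without each gene's top cell, IFIT1 was at -0.28 and KRT17 at -0.14. Without barcodes found in both libraries, KRT14 was at -0.20. The cause was not tested. No paired analysis was possible because each line had 1 library.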
